A study of Mus musculus with 15 samples.

Results

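The interferon-stimulated antiviral genes followed here are 39 genes chosen by symbol, and each of the 39 was found among the 30281 named genes of the deposited tables. The list was chosen with earlier results of these data known. Its counts beside the shares of all genes therefore describe this list and are no independent test of it. They comprise 4 sensors of foreign nucleic acid, 6 factors of the interferon signal, 7 genes of the Oas family, 5 of the Ifit family, 8 other antiviral effectors, 2 chemokines and 7 other interferon-induced genes. RNA was sequenced from the skin of C57BL/6 mice at day 0, 1, 3, 5 and 7 of a wounding course, with 3 libraries per day and 15 in all, as a way to follow the wound over time. Muscle and fat were removed and the skin was frozen before RNA extraction. Every library, those of day 0 included, carries the stress label wound. No other genotype, allele or agent is named for any group. The earliest group is therefore called day 0 and not unwounded skin. The labels do not tell whether separate animals gave the 3 libraries of a day. The p-values therefore speak only of spread among these samples, and that spread could be technical.

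Type I interferons are secreted when a cell senses foreign or misplaced nucleic acid. They bind a receptor whose kinases switch on transcription factors, Stat2 and Irf9 among them, which enter the nucleus and bind the interferon-stimulated response element in front of many genes. The products of these genes sense, trap or destroy viral RNA, hold back protein synthesis and amplify or end the signal. In skin such genes are known to respond to wounding as well as to infection, with keratinocytes, macrophages and plasmacytoid dendritic cells among the cells that make or answer interferon.

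Promoter windows of RefSeq on GRCm38.p6, reaching from 250 bases before to 50 bases after a gene's start, were found for 29 of the 39 genes. The core of the response element, searched on both strands as GAAA, any 2 bases and GAAA, was present in 16 of these 29 genes (55.2%) and in 1079 of all 27025 genes with a window (3.99%). Letters of the gamma-activated site, TTCNNNGAA, which read the same on both strands, were present in 5 of the 29 (17.2%) and in 9.55% of all genes. In Bst2 letters of both kinds share bases. The stretches below carry the core in capitals, with up to 20 bases on each side, and are written 5′ to 3′ on the strand of the gene. The first group shows genes that fell at least 3-fold between day 1 and day 7, chosen after their values were seen.
Isg15 (chr4:156200855-156200916, minus strand): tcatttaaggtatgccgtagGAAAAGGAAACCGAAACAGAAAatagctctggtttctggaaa
Ifit1 (chr19:34640765-34640833, plus strand): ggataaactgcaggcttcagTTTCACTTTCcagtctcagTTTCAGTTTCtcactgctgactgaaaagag
Ifit1bl1 (chr19:34602043-34602092, minus strand): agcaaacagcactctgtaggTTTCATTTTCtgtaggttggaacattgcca
Rsad2 (chr12:26456543-26456592, minus strand): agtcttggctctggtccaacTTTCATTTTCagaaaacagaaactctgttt
Cxcl10 (chr5:92349073-92349122, minus strand): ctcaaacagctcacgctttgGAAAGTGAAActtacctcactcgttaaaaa
Oas3 (chr5:120777705-120777754, minus strand): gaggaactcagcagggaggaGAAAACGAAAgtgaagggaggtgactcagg

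The next stretches are of near copies and are shown for how alike these genes are. All 84 bases were equal between Ifit3 and Ifit3b, and all 38 bases compared were equal between Oas1a and Oas1g.
Ifit3 (chr19:34583353-34583436, plus strand): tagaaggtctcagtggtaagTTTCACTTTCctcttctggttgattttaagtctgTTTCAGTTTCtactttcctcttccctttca
Ifit3b (chr19:34607749-34607832, plus strand): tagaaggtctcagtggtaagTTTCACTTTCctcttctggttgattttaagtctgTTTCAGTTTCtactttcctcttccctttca
Oas1a (chr5:120907526-120907565, minus strand): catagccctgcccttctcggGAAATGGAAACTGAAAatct
Oas1g (chr5:120887614-120887651, minus strand): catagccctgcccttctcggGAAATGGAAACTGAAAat
The last stretches are of Stat2 and Bst2, which carry the core and had smaller differences between days.
Stat2 (chr10:128270256-128270305, plus strand): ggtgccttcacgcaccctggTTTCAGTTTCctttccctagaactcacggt
Bst2 (chr8:71537567-71537622, minus strand): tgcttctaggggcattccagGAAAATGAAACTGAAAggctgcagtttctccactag
A match describes these letters in this window and does not show that a factor binds there.

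The libraries held 38062562 to 60450396 estimated counts. Levels are given as CPM, a library's counts brought to a common total with edgeR's TMM factors. All 39 genes passed the filter on low counts, as 17136 genes did in all, and the lowest count of any of them was 63, for Ifit1bl1 at day 7. The skin markers Krt14, Krt5, Krt10, Krt1, Col1a1 and Col3a1 were present in every library, at a summed 22939 to 53403 CPM. Of all counts, 1.98% came from hair keratin genes in the second library of day 5 and 2.74% in the third library of day 7. In the other 13 libraries this share was 0.00176% to 0.172%. Day 0 replicate 1 held more neutrophil marker RNA than the other day 0 libraries, at a summed 207 CPM against 62.4 and 84.1 CPM.

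The interferon-stimulated genes were highest at day 0 and day 1 and lowest at day 7. Their mean level, as log2(CPM + 1) averaged over the 39 genes, was 5.72, 5.32 and 5.504 in day 0 replicates 1, 2 and 3, and 5.56, 5.68 and 5.67 at day 1. It was 4.85, 5.49 and 5.27 at day 3, 5.15, 4.28 and 4.82 at day 5, and 4.497, 4.13 and 4.22 at day 7. The day 7 libraries lay below all libraries of days 0, 1 and 3, while the day 5 libraries overlapped those of both day 3 and day 7. By day the level was 5.52 ± 0.20, 5.64 ± 0.07, 5.20 ± 0.33, 4.75 ± 0.44 and 4.28 ± 0.19 (SD, n = 3), a difference of -1.23 between day 7 and day 0. Without the libraries rich in hair keratin that difference was -1.20, and that of day 5 from day 0 was -0.53 in place of -0.77. In bulk skin, fewer cells that express these genes and less of their RNA per cell cannot be told apart.

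**Figure D1:**
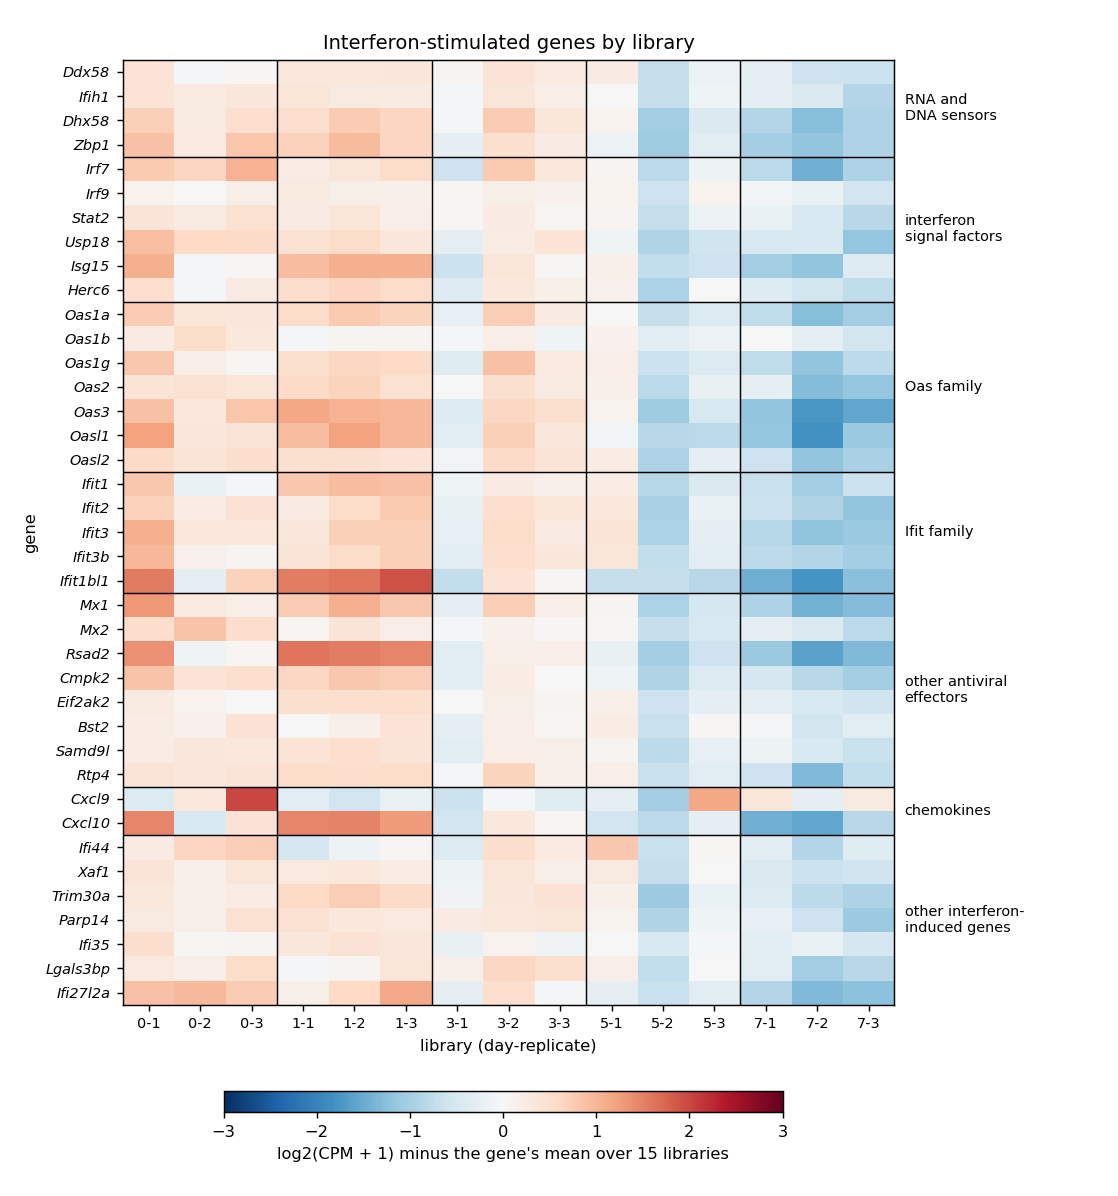
Level of each of the 39 genes (rows, grouped by role) in each of the 15 libraries (columns, day-replicate), as log2(CPM + 1) minus the gene's mean over the libraries. Red cells gather at days 0 and 1 and blue cells at day 7, while Cxcl9 follows another course.

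The order of the daily means was shared by nearly all of the genes. In 36 of 39 genes (92.3%) the mean was lower at each later day from day 1 through days 3, 5 and 7, an order that 11.6% of all genes tested showed. Day 7 had the lowest mean in 38 genes (97.4%, against 23.9% of all genes). The highest mean fell on day 1 in 25 genes, on day 0 in 13 and on day 3 in 1, Lgals3bp, which encodes a secreted glycoprotein. The 3 genes outside the order were Lgals3bp, Ifi44 and the chemokine gene Cxcl9. Over all days, 32 of 39 genes changed by edgeR's quasi-likelihood F test with Benjamini-Hochberg adjustment over all genes tested, against 13.9% of all genes. Ifit1bl1 (edgeR adjusted p = 0.00246), Rsad2 (0.00265) and Ifi27l2a (0.00272) had the smallest p. The 7 not called were Ddx58, Herc6, Oas1b, Ifi44, Irf9, Bst2 and Cxcl9. The count fell to 19 when either day 1 replicate 2 or day 7 replicate 2 was left out and to 21 without day 1 replicate 1. Of all genes, 6.9% were called without day 1 replicate 2 and 6.74% without day 1 replicate 1.

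**Figure D2:**
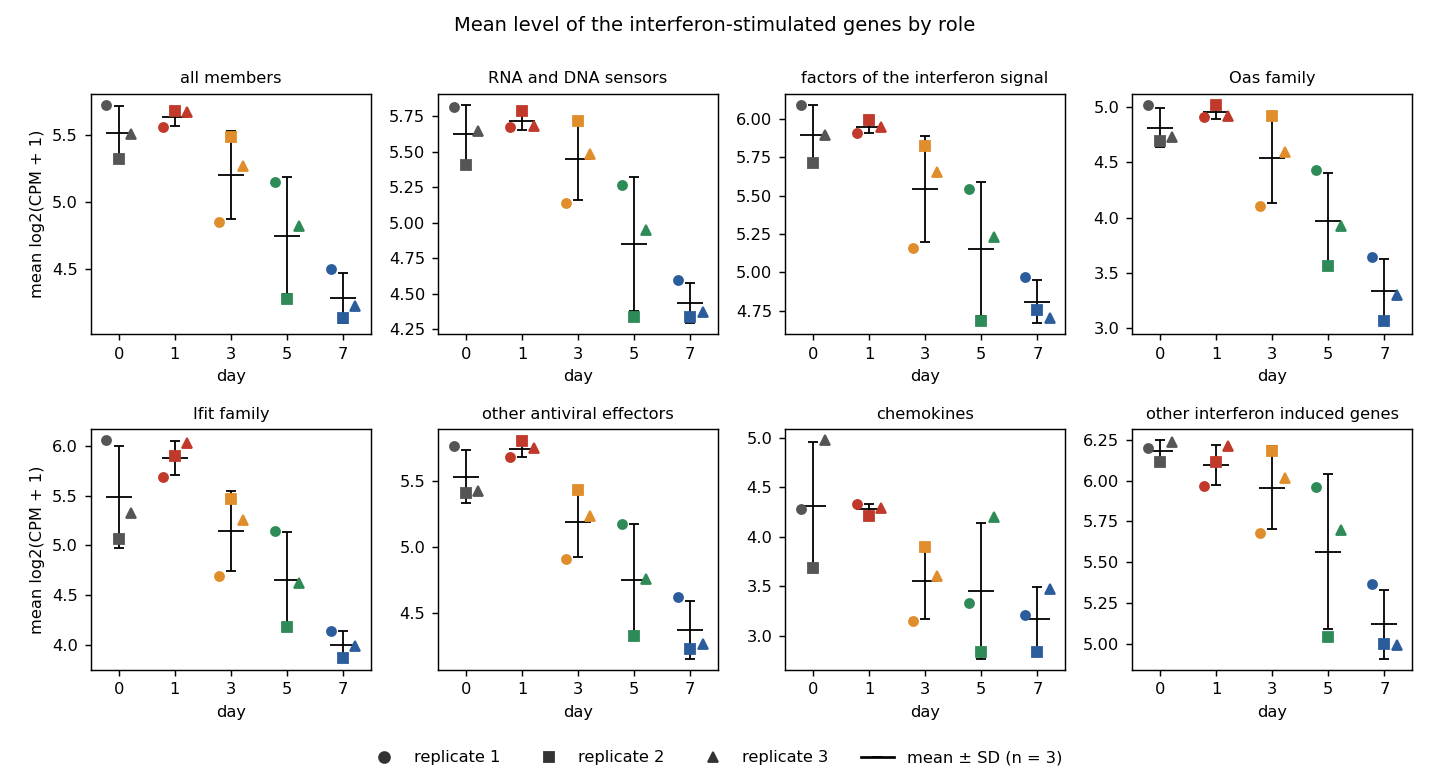
Mean log2(CPM + 1) of all 39 genes and of each of the 7 roles by day, with a point per library and the mean ± SD (n = 3). Each panel has its own axis that does not start at 0. In every panel the mean of day 7 is the lowest, and the chemokine panel has the widest spread at days 0 and 5.

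Against day 0, the genes were lower at day 7 almost throughout. Of the 39, 32 fell and none rose, against 3.94% of all genes tested that fell and 3.1% that rose, and 24 of the 32 fell at least 2-fold. The median log2 fold change was -1.33 over the 39 genes and 0.02 over all genes. In 38 genes every day 7 library lay below every day 0 library, which held for 15.3% of all genes. By the smallest p, the leading genes were Ifi27l2a, Oas3, Zbp1, Cmpk2, Oasl1, Oas1a, Ifit1bl1 and Irf7. Not called were Samd9l (edgeR adjusted p = 0.0505), Ddx58 (0.0648), Herc6 (0.0672), Ifi44 (0.0713), Bst2 (0.112), Irf9 (0.178) and Cxcl9 (0.345). The count depended on single libraries: it dropped to 22 when day 0 replicate 1 was removed, to 19 when replicate 2 was and to 18 when replicate 3 was. The share of all genes called was 7.05% with all libraries and 6.31%, 1.67% and 1.6% in these 3 fits. In the same fits the median log2 fold change of the 39 genes was -1.26, -1.30 and -1.37. Removing day 7 replicate 2 gave 15, and removing day 7 replicate 3 gave 16. Leaving out both libraries rich in hair keratin gave 25. The share of all genes called is not given for these last 3 fits. Whether calls were lost in all genes alike cannot be read from these counts. The genes Cmpk2, Dhx58, Ifi27l2a, Ifit1bl1, Irf7, Mx1, Mx2, Oas1a, Oas3, Oasl1, Oasl2, Rsad2, Rtp4, Usp18 and Zbp1, 15 in all, were called in each of the 6 fits that left out a day 0 or day 7 library.

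The mean level of the 39 genes varied less among the day 1 libraries (SD 0.07) than among those of day 0 (0.20). Against day 1, 34 of 39 genes were lower at day 7 and none higher, against 8.59% of all genes lower and 5.75% higher. At least 2-fold falls were seen in 24. The median log2 fold change was -1.43, against 0.03 over all genes, and the libraries of both days did not overlap in 36 genes, all lower at day 7 (17.2% of all genes were lower in this way and 15.8% higher). Not called were Irf9, Bst2, Oas1b, Ifi44 and Cxcl9. Leaving out both libraries rich in hair keratin gave 35 calls and leaving out 1 library gave 26 to 35. Called in each of the 6 fits without a day 1 or day 7 library were 26 genes. Without day 1 replicates 1, 2 and 3 the counts were 28, 29 and 32, where 6.51%, 7.64% and 10.1% of all genes were called. With all libraries that share was 14.3%, and it is not given for the other fits. Both comparisons use the same day 7 libraries, so they are given side by side and do not support each other.

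**Figure D3:**
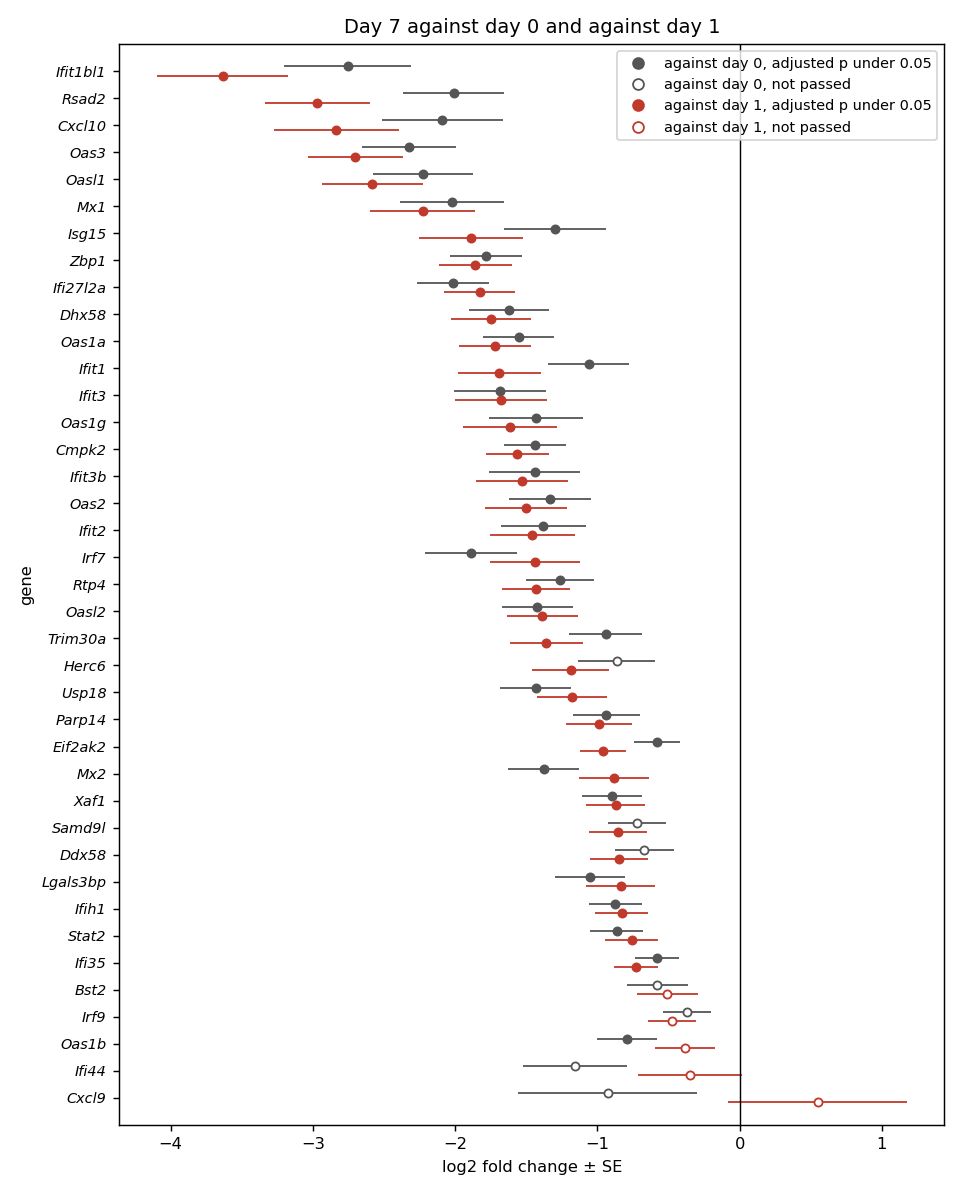
Log2 fold change ± SE of each gene at day 7 against day 0 (grey) and against day 1 (red), with filled points for an edgeR adjusted p under 0.05. The estimates run from -3.64 for Ifit1bl1 to 0.55 for Cxcl9, both against day 1, and all estimates against day 0 lie below 0.

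The sensors detect foreign nucleic acid in the cytosol. Ddx58 and Ifih1 encode the RNA helicases RIG-I and MDA5, Dhx58 encodes their relative LGP2, and Zbp1 binds Z-form nucleic acid and can start necroptosis. Zbp1 stood at 76.3, 50.4 and 74.2 CPM in day 0 replicates 1 to 3, at 66.6, 80.4 and 64.5 at day 1, and at 33.6, 57.9 and 48.6 at day 3. It was at 36.6, 19.1 and 32.7 CPM at day 5 and at 19.8, 17.5 and 21.1 at day 7. All day 5 and day 7 libraries lay below all day 0 libraries, with no overlap. Its log2 fold change at day 7 was -1.78 ± 0.25 (SE) against day 0 (edgeR adjusted p = 0.00627) and -1.86 ± 0.25 against day 1 (0.00102). Dhx58 was at 24.5 to 34.1 CPM at day 0, 29.0 to 34.9 CPM on day 1 and 7.78 to 10.6 CPM on day 7, a 3.08-fold fall against day 0 (edgeR adjusted p = 0.0102). The helicases that signal had smaller differences. Ifih1 was 1.83-fold lower at day 7 than at day 0 (edgeR adjusted p = 0.0204). For Ddx58 the ratio was 1.59-fold and did not pass, while it was 1.80-fold and passed against day 1 (0.0174).

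Among the factors of the signal, Irf7 is the transcription factor that amplifies interferon production, and Stat2 and Irf9 act together at the response element. Irf7 stood at 199, 182 and 239 CPM at day 0, at 136, 149 and 170 at day 1, and at 74.6, 202 and 145 at day 3. It was at 122, 65.2 and 104 CPM at day 5 and at 65.2, 41.8 and 60.5 at day 7. Unlike most of the genes it was already below every day 0 library in each day 1 library, a difference of -0.45 on the log2 scale that did not pass. At day 7 it fell 3.70-fold against day 0, by 1.89 ± 0.32 on the log2 scale (edgeR adjusted p = 0.0101), and 2.71-fold against day 1. The call against day 1 was lost in 1 of 6 fits with a library left out (highest adjusted p 0.0531). Stat2 fell 1.82-fold against day 0 (edgeR adjusted p = 0.0212). Irf9 had the smallest estimate of the 39 against day 0. It was at 55.8 to 61.9 CPM at day 0, 61.7 to 66.2 CPM on day 1 and 36.9 to 52.1 CPM on day 7, with neither comparison called.

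Isg15 encodes a ubiquitin-like protein that is joined to other proteins, a step for which Herc6 is the ligase in mice, and Usp18 removes it and blocks the receptor. Isg15 stood at 91.0, 41.1 and 44.3 CPM at day 0 and at 82.7, 91.5 and 91.4 at day 1. At day 3 it was at 27.4, 56.1 and 43.9 CPM, at day 5 at 47.9, 25.4 and 27.7, and at day 7 at 20.6, 18.5 and 32.6. The day 1 libraries agreed closely, and day 0 replicate 1 lay with them rather than with the other day 0 libraries. Isg15 fell 3.70-fold between day 1 and day 7 (log2 fold change -1.89 ± 0.36, edgeR adjusted p = 0.00585). The 2.46-fold fall against day 0 (0.0483) was called in 0 of the 6 fits with a day 0 or day 7 library left out. Usp18 fell 2.70-fold against day 0, from 36.8 ± 4.87 to 13.6 ± 3.65 CPM (edgeR adjusted p = 0.0102). Herc6 was 1.82-fold lower than at day 0, which did not pass, and fell 2.28-fold against day 1 (0.0132). Part of the 31-base words of Isg15 (13.1%) and Herc6 (13.8%) also occur in transcripts of other genes.

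Those Oas proteins that are active enzymes make oligoadenylates that switch on RNase L, which cuts RNA. All 7 genes of the family fell between day 0 and day 7. Oas3, the sensor of long double-stranded RNA, stood at 38.9, 26.2 and 37.6 CPM at day 0, at 47.2, 43.8 and 42.2 at day 1 and at 15.7, 32.3 and 29.3 at day 3. It was at 22.3, 9.40 and 14.5 CPM at day 5 and at 8.602, 5.47 and 6.38 at day 7. Each day 7 library lay below each library of the 4 other days. Its log2 fold change at day 7 was -2.33 ± 0.33 against day 0 (edgeR adjusted p = 0.00627) and -2.70 ± 0.33 against day 1 (0.000597), the smallest adjusted p of any of the 39 genes in that comparison. Oasl1, which restrains Irf7 production, fell 4.67-fold against day 0 (edgeR adjusted p = 0.00886) and 5.99-fold against day 1 (0.00107). Oasl2 and Oas2 fell 2.68-fold and 2.52-fold against day 0.

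Oas1a and Oas1g fell 2.94-fold and 2.69-fold against day 0, but their values are uncertain: 68.7% of the 31-base words of Oas1a also occur in Oas1g, and 54.6% of those of Oas1g in Oas1a. Oas1b, the flavivirus resistance gene that is truncated in many laboratory strains, had the smallest fall of the family. It was at 5.05 to 6.45 CPM at day 0, 3.90 to 4.43 CPM on day 1 and 2.49 to 4.12 CPM on day 7. The 1.73-fold difference of day 7 from day 0 passed (edgeR adjusted p = 0.0444) and was called in 1 of 6 fits with a library left out. Between day 1 and day 7 its libraries overlapped and the test did not pass (0.241).

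Ifit proteins bind viral RNA that lacks the host's cap methylation, and all 5 genes fell at least 2-fold at day 7 against both day 0 and day 1. Ifit1bl1, a relative of Ifit1, had the largest estimates of the 39 genes at day 7 against both earlier days. It stood at 26.4, 6.58 and 13.98 CPM at day 0, at 25.6, 27.0 and 33.8 at day 1 and at 4.53, 11.4 and 8.43 at day 3. At day 5 it was at 4.67, 4.72 and 4.21 CPM and at day 7 at 2.36, 1.69 and 2.88. The day 1 libraries lay above all libraries of days 3, 5 and 7, while 1 day 0 library lay with day 1 and another with day 3. The fall to day 7 was 12.4-fold from day 1 (log2 fold change -3.64 ± 0.46, edgeR adjusted p = 0.000666) and 6.75-fold from day 0 (0.00886). Of its 31-base words, 18.7% also occur in Ifit1bl2.

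Ifit1 was at 82.4, 40.8 and 44.9 CPM at day 0, 82.6 to 89.8 CPM on day 1 and 22.2 to 29.3 CPM on day 7. It fell 3.23-fold against day 1 (edgeR adjusted p = 0.00322) and 2.09-fold against day 0 (0.0449), a call made in 0 of 6 fits with a library left out. Ifit2, which binds RNA and can start cell death, fell 2.60-fold against day 0 (edgeR adjusted p = 0.0212). Ifit3 and Ifit3b fell 3.22-fold and 2.72-fold, with 61.8% and 54.1% of their 31-base words shared between them, so that how their reads were split is uncertain. The Ifit2 and Ifit3b calls against day 0 were each made in 3 of the 6 fits, and that of Ifit3 in 4.

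Rsad2, which encodes viperin, and Cmpk2, which encodes a mitochondrial nucleotide kinase, act on nucleotides that viral polymerases use. Rsad2 stood at 93.3, 32.4 and 37.2 CPM at day 0, at 111, 106 and 99.6 at day 1 and at 28.0, 40.2 and 41.3 at day 3. It was at 30.4, 16.9 and 22.6 CPM at day 5 and at 15.8, 10.97 and 13.6 at day 7. Each day 1 library lay above each library of every other day, and each day 7 library below. Rsad2 fell 7.83-fold from day 1 to day 7 (log2 fold change -2.97 ± 0.37, edgeR adjusted p = 0.000601) and 4.03-fold from day 0 to day 7 (0.0110). Cmpk2 went from 32.0 to 43.9 CPM at day 0 and 37.2 to 42.3 at day 1 to 11.3 to 16.4 at day 7, a 2.72-fold fall against day 0 (edgeR adjusted p = 0.00834).

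Mx1 and Mx2 belong to a family of dynamin-like GTPases, members of which trap viral components. RNA levels do not tell whether working protein is made in these mice. Mx1 was at 45.7, 21.9 and 21.0 CPM at day 0, 31.1 to 38.8 CPM on day 1 and 6.12 to 8.98 CPM on day 7. It fell 4.06-fold against day 0 (edgeR adjusted p = 0.0121) and 4.69-fold against day 1 (0.00260). Mx2 was highest at day 0, at 7.05 to 9.18 CPM against 4.81 to 6.35 at day 1, and fell 2.60-fold by day 7 (edgeR adjusted p = 0.0121). Rtp4, an interferon-induced chaperone with antiviral action, had day 0 libraries within 52.8 to 54.2 CPM and fell 2.40-fold (edgeR adjusted p = 0.0145).

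The remaining effectors had smaller differences. Eif2ak2, which encodes the kinase PKR that halts translation, was at 74.9 to 75.7 CPM at day 1 and at 34.5 to 43.9 at day 7, a 1.95-fold fall (edgeR adjusted p = 0.00279). Against day 0 its fall was 1.49-fold (0.0483). Samd9l, a restrictor of translation and growth, fell 1.81-fold against day 1 (edgeR adjusted p = 0.0161). Bst2, which encodes tetherin that holds budding virus at the cell surface, stood at 116, 109.7 and 135 CPM at day 0 and at 100.05, 111 and 133 at day 1. It was at 81.1, 115 and 105 CPM at day 3, at 117, 62.4 and 102 at day 5 and at 95.7, 67.7 and 78.3 at day 7. The day 7 libraries lay below those of days 0 and 1 but inside the range of day 5, and Bst2 was called in no comparison.

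**Figure D4:**
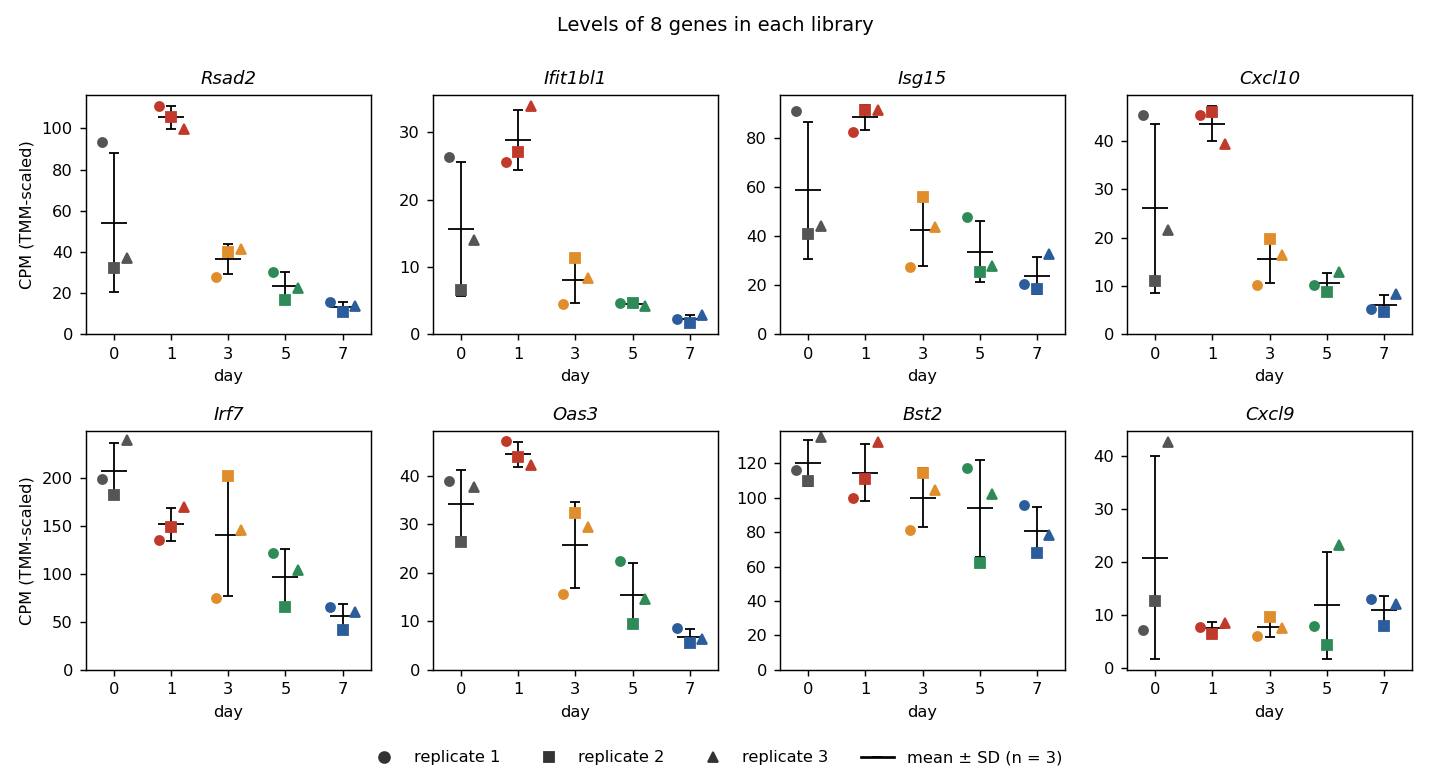
Levels of 8 of the genes in CPM by day, with a point per library and the mean ± SD (n = 3), each panel on its own axis. Rsad2, Ifit1bl1, Isg15 and Cxcl10 show tight day 1 libraries and a day 0 group in which replicate 1 lies apart, while Bst2 and Cxcl9 show overlapping days.

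The chemokines Cxcl9 and Cxcl10 draw T and NK cells through the receptor Cxcr3, and they took different courses. Cxcl10 stood at 45.4, 11.1 and 21.6 CPM at day 0 and at 45.4, 46.1 and 39.4 at day 1. It was at 10.3, 19.8 and 16.5 CPM at day 3, at 10.3, 8.78 and 12.9 at day 5 and at 5.17, 4.72 and 8.41 at day 7. The day 7 libraries lay below all others, and day 0 replicate 1 lay with the day 1 libraries. Cxcl10 fell 7.13-fold from day 1 to day 7 (log2 fold change -2.83 ± 0.44, edgeR adjusted p = 0.00185) and 4.26-fold from day 0 (0.0184). The call against day 0 was lost in 1 of 6 fits with a library left out (highest adjusted p 0.0581).

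Cxcl9, which answers chiefly to interferon gamma, stood at 7.16, 12.6 and 42.8 CPM at day 0 and at 7.74, 6.34 and 8.47 at day 1. It was at 5.98, 9.66 and 7.47 CPM at day 3, at 7.94, 4.23 and 23.2 at day 5 and at 12.96, 7.94 and 12.03 at day 7. Day 0 replicate 3 and day 5 replicate 3 were high, and the other 13 libraries lay within 4.23 to 12.96 CPM. T and NK cell markers summed to 133 CPM in day 0 replicate 3 and 90.6 CPM in day 5 replicate 3, the highest of all libraries, and their part in the Cxcl9 level was not tested. No comparison called Cxcl9. It was the only one of the 39 with a day 7 mean above day 1, a log2 difference of 0.55 ± 0.63 (edgeR adjusted p = 0.582). The day 1 value of -1.47 against day 0 was 0.08 when day 0 replicate 1 was the only day 0 library and -0.40 without day 0 replicate 3.

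Of the other interferon-induced genes, Ifi27l2a, which encodes a small hydrophobic protein, had the smallest p of the 39 at day 7 against day 0. It stood at 283, 302 and 263 CPM at day 0, at 173, 233 and 339 at day 1 and at 126, 220 and 151 at day 3. At day 5 it was at 125, 96.6 and 124 CPM and at day 7 at 83.9, 60.8 and 65.2. From day 3 on every library lay below every day 0 library. The fall to day 7 was 4.04-fold (log2 fold change -2.01 ± 0.25, edgeR adjusted p = 0.00446). Lgals3bp fell 2.07-fold (edgeR adjusted p = 0.0275), from 214 ± 27.7 to 103 ± 28.0 CPM, after its highest mean of 226 ± 36.9 at day 3. Trim30a, Parp14, Xaf1 and Ifi35 fell by 1.92, 1.91, 1.87 and 1.496-fold, and the adjusted p of these 4 lay between 0.0276 and 0.0444 by edgeR. In the fits with a library left out, Ifi35 was called in 0 of 6, Trim30a, Parp14 and Xaf1 in 1 each and Lgals3bp in 2.

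Ifi44 was highest at day 0, at 13.3, 17.7 and 19.1 CPM, against 7.43, 9.87 and 11.3 at day 1. It was at 8.06, 16.2 and 13.8 CPM at day 3, at 20.1, 6.55 and 11.3 at day 5 and at 8.52, 5.58 and 8.37 at day 7. Day 5 replicate 1 exceeded all day 0 libraries, and day 1 and day 7 overlapped. Its log2 fold change was -0.81 ± 0.36 at day 1 and -1.16 ± 0.37 at day 7, both against day 0 and neither called.

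Genes with and without the core of the response element in their window were both lower at day 7. Against day 0, 14 of the 16 with it and 8 of the 13 without it fell, where 3.94% of all genes tested fell. The median log2 fold changes were -1.36 and -1.05. Against day 1 the counts were 15 of 16 and 10 of 13, with medians of -1.65 and -0.87, where 8.59% of all genes tested fell. All genes were not split by the core. Stat2 and Bst2, whose stretches are printed above, carry the core and were at 1.82-fold and 1.49-fold lower levels at day 7 than at day 0. The window of Irf7, with a larger fall, held no match, and Zbp1 was among the 10 genes with no window. The difference between the groups with and without the core was not tested.

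At day 1, no gene of the 39 passed against day 0, where 4.22% of all genes rose and 3.36% fell. The estimate was higher at day 1 in 25 genes and lower in 14, with a median of 0.12 on the log2 scale (0.03 without day 0 replicate 2, 0.08 without replicate 3 and 0.21 without replicate 1), and 5 had an unadjusted p under 0.05. Every day 1 library lay above every day 0 library in 8 genes (19.8% of all genes) and below in 5 (18%). The 5 with the smallest p were Rsad2, with 0.96 ± 0.34 (edgeR adjusted p = 0.102), Eif2ak2 with 0.38 ± 0.16 (0.147), Cxcl9 with -1.47 ± 0.64 (0.159), Ifi44 (0.174) and Ifit1 with 0.63 ± 0.28 (0.177). DESeq2 called 1, Rsad2 (adjusted p = 0.0387), where it called 16.1% of all genes. Without day 0 replicate 1, edgeR called 4 of the 39 as higher at day 1, Cxcl10, Ifit1, Ifit1bl1 and Rsad2. That fit called 13.8% of all genes in either direction. Rsad2 then had a log2 fold change of 1.60 (edgeR adjusted p = 0.00263). Without the libraries rich in hair keratin edgeR called 1, Eif2ak2 (0.0384).

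Day 0 replicate 1 was the highest day 0 library for 26 of the 39 genes. In 10 genes it was at least 1.5 times the higher of replicates 2 and 3: Rsad2 (2.51 times), Cxcl10 (2.10), Mx1 (2.08), Isg15 (2.05), Ifit1bl1 (1.89), Ifit3b (1.86), Ifit1 (1.83), Oasl1 (1.81), Ifit3 (1.70) and Oas1g (1.57). It was the lowest of the 3 for Cxcl9, Ifi44, Oas1b and Samd9l. The same library held 93.0 CPM of the cytokine-induced inhibitor Socs3 against 28.0 and 29.1 CPM, and 19.3 CPM of the neutrophil receptor gene Cxcr2 against 2.23 and 2.24 CPM. The part that these differences play in the comparisons with day 0 was not tested beyond the fits without that library.

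At day 3, none of the 39 passed against day 0, where 0.595% of all genes rose and 0.193% fell. The median was -0.27, with 34 estimates below 0 and 6 unadjusted p under 0.05. The median was -0.09 without day 0 replicate 1 (3 genes with an unadjusted p under 0.05), -0.13 without day 3 replicate 1 (2 genes) and -0.43 without day 3 replicate 2 (8 genes). Libraries did not overlap in 7 genes, all lower at day 3 (12.4% of all genes were lower in this way and 13.1% higher). The leading gene was Ifi27l2a, at -0.77 ± 0.24 (edgeR adjusted p = 0.152), followed by Cmpk2 at -0.65 ± 0.21, Mx2 at -0.70 ± 0.25 and Usp18 at -0.59 ± 0.24. DESeq2 called 1, Ifi27l2a (adjusted p = 0.0442), where it called 5.54% of all genes. Day 3 replicate 1 was the lowest library of its day for 38 of the 39 genes.

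At day 5, 3 genes fell against day 0, where 0.292% of all genes fell and 0.21% rose: Ifi27l2a by 1.29 ± 0.25 on the log2 scale (edgeR adjusted p = 0.0458), Usp18 by 1.26 ± 0.25 (0.0484) and Cmpk2 by 1.10 ± 0.22 (0.0484). All 39 estimates were below 0, with a median of -0.67, and 26 had an unadjusted p under 0.05. In 22 genes the libraries of both days did not overlap, all lower at day 5, against 13.8% of all genes that were lower in this way and 12.3% higher. The 3 calls lay close to the threshold. No call was left when day 0 replicate 2 or 3, day 1 replicate 2, day 3 replicate 1 or 3, day 5 replicate 1, 2 or 3, or day 7 replicate 2 was left out. In the fits without day 0 replicate 2 or 3, none of all genes tested was called. Of the 39, 1 was called, Ifi27l2a, without day 1 replicate 1 or 3 or day 3 replicate 2, and 2 without day 7 replicate 1. Of all genes, 0.339% were called without day 1 replicate 1 and 0.683% without day 1 replicate 3. Without day 7 replicate 3 there were 6, and DESeq2 made 17 calls, where it called 6.76% of all genes. The median was -1.004 without day 5 replicate 1 and -0.44 without day 5 replicate 2. Replicate 1 was the highest day 5 library for 36 genes and replicate 2, rich in hair keratin, the lowest for 38. Leaving out both libraries rich in hair keratin gave 3 calls, Cmpk2, Mx2 and Usp18. The share of all genes called is not given for that fit or for the fit without day 7 replicate 3.

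With all libraries, edgeR called no single step between neighbouring days from day 1 on in any of the 39 genes. Shares of all genes that fell or rose are by adjusted p, while the counts of unadjusted p are of the 39 only. These are unlike thresholds and cannot be set against each other. From day 1 to day 3 the median was -0.33 and 12 genes had an unadjusted p under 0.05, led by Rsad2 at -1.53 ± 0.35 (edgeR adjusted p = 0.124), Ifit1bl1 at -1.83 ± 0.43 (0.126), Cxcl10 at -1.49 ± 0.41 (0.190) and Cmpk2 at -0.77 ± 0.21 (0.190). DESeq2 called these same 4, and edgeR without day 0 replicate 1 called Rsad2, where they called 2.74% and 0.155% of all genes. The median was -0.16 without day 3 replicate 1, with 4 genes at an unadjusted p under 0.05. By edgeR's adjusted p, 0.00584% of all genes fell in this step and 0 rose. Libraries did not overlap in 15 genes, all lower at day 3, against 13.2% of all genes lower and 11.6% higher. From day 3 to day 5 the median was -0.48 and 11 genes had an unadjusted p under 0.05. DESeq2 called 0 of the 39, where it called 3.25% of all genes. By edgeR's adjusted p, 0.0175% of all genes fell and 0.00584% rose. Libraries did not overlap in 2 genes, both lower at day 5, against 11.9% of all genes lower and 9.72% higher. The median was -0.25 without day 5 replicate 2 (1 gene at an unadjusted p under 0.05), -0.31 without day 3 replicate 2 (1 gene) and -0.75 without day 5 replicate 1 (27 genes). Without day 3 replicate 1 there were 20 such genes, and without day 3 replicate 3 or day 5 replicate 3 there were 5. Without the libraries rich in hair keratin the median was -0.26 with 2 such genes. Dhx58 led, at -0.81 ± 0.28 (edgeR adjusted p = 0.246), before Usp18 at -0.67 ± 0.25, Zbp1 at -0.67 ± 0.25 and Oas1a at -0.65 ± 0.25. From day 5 to day 7 the median was -0.58 and 19 genes had an unadjusted p under 0.05, against 0.00584% of all genes that fell. Libraries did not overlap in 9 genes, all lower at day 7, against 5.46% of all genes lower and 5.68% higher. The median was -0.32 without day 5 replicate 1 (2 genes at an unadjusted p under 0.05) and -0.79 without day 5 replicate 2 (30 genes). Without day 7 replicate 2 there were 2 such genes, without day 5 replicate 3 11 and without day 7 replicate 3 12. Without the libraries rich in hair keratin there were 29. Oas3 led, at -1.18 ± 0.32 (edgeR adjusted p = 0.353), and was called by DESeq2 (adjusted p = 0.0354), which called 0.872% of all genes. Ifi27l2a, Oas1a and Ifit3 followed, at -0.72 ± 0.24, -0.69 ± 0.25 and -0.89 ± 0.32.

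The interferons themselves were at or near 0. Of 13 ligand genes, 3 passed the filter and none changed over time, with Ifnk (edgeR adjusted p = 0.269) and Ifnz (0.326) having the smallest p. Ifnk, an interferon of keratinocytes, was at 2.35 CPM in day 0 replicate 1, at 0.101 and 0.0199 CPM in the other day 0 libraries, at 0.532 to 0.963 CPM at day 1 and at 0 to 0.193 CPM at day 7. Ifnb1, named after its values were seen, had 3, 0 and 1 counts at day 0, 3, 5 and 9 at day 1, and 1, 0 and 0 at day 5. It had 0 counts in all day 3 and day 7 libraries, which allows up to 0.0805 CPM in the shallowest of them. Ifna1, Ifna2, Ifna6, Ifnl2 and Ifnl3 had 0 counts in all 15 libraries.

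None of 6 interferon receptor genes was called against day 0 at any day. Over time, where 13.9% of all genes were called, 1 was called. This was Ifnar1, a chain of the type I receptor (edgeR adjusted p = 0.0432, in 5 of 15 fits with a library left out). It stood at 75.6 to 95.8 CPM at day 0, 97.9 to 102 CPM on day 1 and 61.2 to 77.0 CPM on day 7. Of 13 JAK-STAT and IRF factors, Jak2 and Stat3 rose at day 1 and Irf4 fell, against 4.22% of all genes that rose and 3.36% that fell. Jak2, a receptor kinase, went from 65.1 to 76.6 CPM at day 0 to 104 to 127 at day 1 (log2 fold change 0.68 ± 0.12, edgeR adjusted p = 0.0113, in 5 of 6 fits). Stat3, which acts in inflammation and repair, rose by 0.66 ± 0.19 (0.0484), a call made in 1 of 6 fits. Irf4, a factor of lymphoid and myeloid cells, fell by 1.97 ± 0.38 (0.0156), a call made in 3 of 6 fits. At day 7, 2 of the 13 were lower than at day 0, against 3.94% of all genes. These were Irf4 and the kinase gene Tyk2 (-0.51 ± 0.11, edgeR adjusted p = 0.0241), and their calls were made in 1 and 2 of 6 fits. Without the libraries rich in hair keratin, the adjusted p of Irf4 was 0.0818.

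Of 17 genes of nucleic acid sensing found in the tables, Myd88, the adaptor of Toll-like receptors, rose at day 1 by 0.77 ± 0.15 (edgeR adjusted p = 0.0160, in 2 of 6 fits). At day 7, Tlr9 fell by 1.62 ± 0.35 (0.0212, in 2 of 6 fits) and Ifi204 by 1.04 ± 0.21 (0.0169, in 4 fits) against day 0 by edgeR. Against day 1, 6 of the 17 were lower at day 7, as were 8.59% of all genes. Among 11 brakes on the pathway, Socs3 rose at day 1 by 2.05 ± 0.38 (edgeR adjusted p = 0.0148, in 3 of 6 fits), from 28.0 to 93.0 CPM at day 0 to 159 to 257 CPM. At day 7, 4 brakes were lower than at day 0 and 1, Rnaseh2b, higher, against 3.94% and 3.1% of all genes. Trex1, the nuclease that clears cytosolic DNA, fell by 1.24 ± 0.17 (edgeR adjusted p = 0.00545) and was called in each of 6 fits. Samhd1, which depletes nucleotides, fell by 1.08 ± 0.22 (0.0191, in 3 fits) and the phosphatase gene Ptpn6 by 0.86 ± 0.17 (0.0162, in 4 fits).

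A list of 55 further interferon-induced genes was itself chosen with earlier results known. Of the 55, 35 were lower at day 7 than day 0 and 34 lower than day 1, with medians of -0.86 and -0.75. Of all genes tested, 3.94% fell against day 0 and 8.59% against day 1. Ms4a4c, a membrane protein gene, fell by 2.34 ± 0.37 (edgeR adjusted p = 0.00886), and Phf11b by 1.79 ± 0.30 (0.00904), both in each of 6 fits. Phf11a fell by 2.39 ± 0.49 (0.0191, in 3 fits). Phf11a and Phf11b belong to a family of close relatives, so their values are uncertain. At day 1, 4 of the 55 rose, Ifitm1, Ifitm2, Mlkl and Ms4a6d, and none fell, against 4.22% of all genes that rose and 3.36% that fell. Ifitm1, which blocks virus entry at membranes, rose from 4.63 to 17.9 CPM at day 0 to 73.4 to 99.5 CPM (log2 fold change 3.12 ± 0.50, edgeR adjusted p = 0.00932, in 5 of 6 fits). It was still at 27.1 to 71.6 CPM at day 3 and was back at 7.99 to 15.6 CPM at day 7. Ifitm1 was the 1 gene of the list called at day 3 (edgeR adjusted p = 0.0482, in 1 of 6 fits).

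Cell type markers moved beside these genes, and their part in the results was not tested. Of 12 monocyte and macrophage markers, 8 fell at day 7 against day 0, where 3.94% of all genes fell. The summed level of the 12 was 3444 to 5612 CPM at day 0 and 2451 to 3811 at day 7, and none was at 0 in any library. Ly6c2 fell by 3.10 ± 0.52 on the log2 scale (edgeR adjusted p = 0.00974), Fcgr1 by 1.82 ± 0.26 (0.00627), Itgam by 1.498 ± 0.23 (0.00832) and Ccr2 by 1.39 ± 0.26 (0.0150). Cd68, C1qa, C1qb and C1qc were the other 4. The summed level was 3192 to 4274 CPM at day 1 and 4879 to 5513 CPM at day 3. Lyz2 had a mean of 1282 CPM at day 1 and 2288 CPM at day 3. Other markers had lower means at day 3 than at day 1: Ly6c2 59.4 and 29.7 CPM, Fcgr1 115 and 81.0 CPM, Itgam 217 and 182 CPM, and Ccr2 316 and 251 CPM at day 1 and day 3. None of these 5 markers was called between day 1 and day 3. Against day 1, where 8.59% of all genes were lower at day 7, 5 of the 12 were: Itgam, Fcgr1, Ccr2, Cd68 and Ly6c2.

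Neutrophil markers had a summed level of 62.4 to 207 CPM at day 0 and of 834 to 1319 CPM at day 1. On day 3 the sum was 541 to 944 CPM, on day 5 144 to 379 CPM, and on day 7 48.6 to 256 CPM. Of these 10 markers, 8 rose at day 1, where 4.22% of all genes rose. The same number were lower at day 7 than at day 1, against 8.59% of all genes. Ly6g, Ngp and Stfa2l1 were at 0 in some libraries. T and NK cell markers summed to 69.7 to 133 CPM at day 0, 42.5 to 45.0 CPM on day 1 and 54.3 to 78.2 CPM on day 7. Of these 14, 5 were lower at day 1, where 3.36% of all genes fell, and 0 were lower at day 7. Trbc2 was the 1 higher at day 7 than at day 1, against 5.75% of all genes. Endothelial markers had 0 of 10 called in these comparisons. They summed to 417 to 446 CPM at day 0, 633 to 868 CPM on day 3 and 352 to 488 CPM on day 7. Over time, where 13.9% of all genes were called, Pecam1 (edgeR adjusted p = 0.0221), Cdh5 (0.0349) and Emcn (0.0460) were called. The other endothelial markers were not. Markers of plasmacytoid dendritic cells, cells that can secrete much type I interferon, included 1 of 12 called at each later day against day 0. This was Runx2, which was higher, against 0.21% to 4.22% of all genes that rose at these days. Siglech, a defining marker of these cells, was at 1.34 to 9.15 CPM, while most of the list's summed 452 to 809 CPM came from Ly6d and Tcf4, which skin also expresses.

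**Figure D5:**
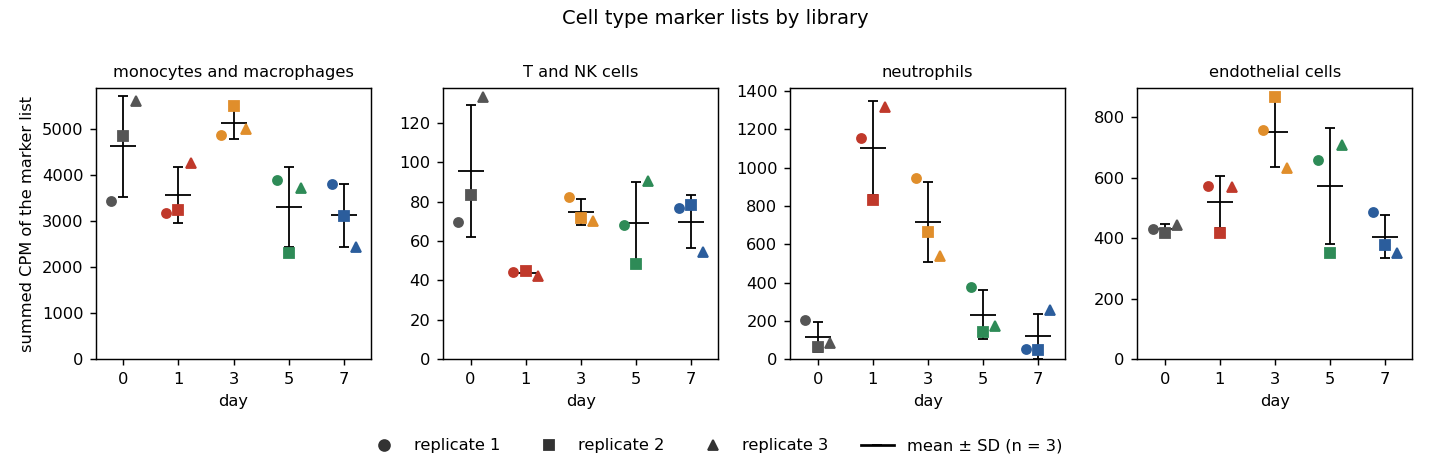
Summed CPM of 4 marker lists by day, with a point per library and the mean ± SD (n = 3). Neutrophil markers peak at day 1 and monocyte and macrophage markers at day 3, while T and NK cell markers are lowest at day 1.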

How the data were processed

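Libraries from skin at 5 days, 3 per day, were prepared with a VAHTS mRNA-seq kit and read on an Illumina HiSeq X-Ten; both come from the labels' protocols. The deposited values are estimated counts per gene symbol. The submitters' processing notes name kallisto 0.43 as the tool. Its index, the build, the annotation and the strand setting were not given in the sources used here. Each table held 30307 rows, of which 26 had dates in place of symbols (0.155% to 0.179% of the counts) and were left out.

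Counts were rounded to whole numbers, scaled by TMM and tested with edgeR 4.0.16 (robust quasi-likelihood, R 4.3.3) in 1 model with the 5 days as groups. The filter on low counts used a minimum of 10 and kept 17136 genes, over all of which p-values were adjusted (Benjamini-Hochberg, threshold 0.05). The script was tested on simulated data. Levels are log2(CPM + 1), with a pseudocount of 1. A count of 0 allows 3 counts, for counting error only. The common biological coefficient of variation was 30.9%. No pair of libraries of a day agreed within sampling noise.

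Near copies were searched as shared 31-base words in the transcripts of GENCODE M21. Alternatives were DESeq2 1.42.0, its size factors in edgeR, no filter, a replicate block, each library left out, day 0 replicate 1 as the only day 0 library, other pseudocounts and no TMM; leaving out the libraries rich in hair keratin (67 genes) was added after seeing the data. The members and lists were chosen with earlier results of these data known. All members may be named. Full statistics go to at most 8 called members per comparison by smallest p, or to the 4 with the smallest p where fewer than 2 were called. From each pathway list, up to 4 called genes with the largest difference are named, or 2 by smallest p where none was called. Further members are given by fold and adjusted p. Ifnb1 and the genes behind counts of 5 or fewer were named after their values were seen.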

Additional observations from a re-analysis of the deposited data

How the results depend on the processing

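The median fold change of the 39 genes was computed under the alternative fits and libraries left out, and there kept its direction except at day 1 against day 0, where it was -0.10 with only day 0 replicate 1 kept for day 0. The mean level at day 7 differed from day 0 by -1.04 with a pseudocount of 5 CPM, -1.30 with 0.1 CPM and -1.28 without TMM. At day 7 against day 0, 32 genes were called, 33 with DESeq2's size factors in edgeR, 36 by DESeq2, 28 with no filter on low counts, 26 with a replicate block and 25 without the libraries rich in hair keratin. The main fit called 7.05% of all genes, that with DESeq2's size factors 7.07%, DESeq2 16.3%, that with no filter 3.91% and that with the block 4.8%. With only replicate 1 kept for day 0 the count was 11, and over time it was 21. Leaving out 1 library gave 15 to 36 calls at day 7 against day 0, 26 to 35 at day 7 against day 1 and 19 to 34 over time. It gave 0 to 6 at day 5 against day 0, 0 to 4 at day 1 against day 0 and 0 to 1 at day 3 against day 1. The share of all genes called also changed between these fits. At day 7 against day 0 it was 6.31% without day 0 replicate 1 and 1.6% without day 0 replicate 3. DESeq2 called 17 genes at day 5 against day 0, 1 at day 1, 1 at day 3, 4 at day 3 against day 1 and 1 at day 7 against day 5. Of all genes it called 6.76%, 16.1%, 5.54%, 2.74% and 0.872% in these comparisons. With day 0 replicate 1 alone for day 0, Rsad2 had a log2 fold change of -1.53 at day 3 against day 1. Without the libraries rich in hair keratin, 1 was called at day 1. The cause of these differences was not tested, other than that fewer samples enter a fit with libraries left out. Cxcl9 at day 1 against day 0 reversed to 0.0814 with day 0 replicate 1 alone for day 0. The replicate block gave 0 calls at day 5 and 24 over time, where it called 0.158% and 9.75% of all genes. Whether replicate numbers pair the libraries could not be told. Of 30 pairs with the same number, 14 had a correlation of deviations over 0.1, and 7 of 15 libraries correlated best with their own number. The mean correlation was 0.039 for pairs with the same number and -0.013 for others. Day 5 replicate 2 and day 7 replicate 3, both rich in hair keratin, correlated at 0.87, so a shared trait of that kind can hide a pairing.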
